A study of Drosophila melanogaster with 4 samples.

Results

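The genes described here encode core proteins of septate junctions, the barrier junctions of insect epithelia. All 10 genes named for the set (sinu, kune, Gli, Mcr, Nrx-IV, Nrg, Lac, cold, cora and nrv2) were found by symbol among the 17773 gene targets of the deposited tables, and all 10 passed the filter on low counts that left 9402 genes to test. RNA came from ovaries of adult female Drosophila melanogaster kept for 20 days at 29 °C. The tumor genotype was tj-GAL4, tubulinGal80ts with UAS-aPKCΔN and UAS-RasV12, and the control genotype was tj-GAL4, tubulinGal80ts alone. In both genotypes the driver is active in somatic cells of the ovary and the Gal80 repressor is temperature-sensitive. The transgenes add an atypical protein kinase C that lacks its N-terminal part and an oncogenic form of Ras. There were 2 libraries of each genotype, described by the submitters as biological replicates. Control ovaries were dissected down to follicles that had not begun yolk uptake, tumors were taken as such, and both were dissociated with a protease and filtered for follicle epithelial cells.

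Septate junctions lie along the lateral membrane of epithelial cells, where they seal the space between neighbours and hold back diffusion across the sheet. Their core is a large and stable complex of claudins, cell adhesion molecules, subunits of the Na+/K+ ATPase and cytoplasmic scaffold proteins, and most of its members depend on one another to reach the junction. In the follicular epithelium, the somatic layer around the germline, several of these proteins are present along the lateral membrane early in oogenesis and become concentrated in mature junctions later. The comparison asks how transcripts of these genes differ between the tumor and the control tissue.

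The libraries held 42739528 to 47512735 estimated counts in tumor and 41248098 to 50971937 in control, so that counting error is small for most of these genes and the spread between libraries sets the precision. Estimated counts of aPKC were 54944 and 73836 in tumor against 1910 and 2482 in control. Those of Ras85D were 102550 and 109225 in tumor against 676 and 215 in control. Counts of both rose (edgeR adjusted p = 0.0015 and 0.0051). Transcripts of the transgenes are not told apart in these counts from those of the resident genes. Of 9402 genes tested with edgeR, 2202 (23.4%) were higher and 1989 (21.2%) lower in tumor. Genes called higher made up 52.5% of these calls. Scaling on ribosomal protein genes took that share to 83.1%, and tests on TPM gave 67.6 to 68.1%. The tables were quantified on targets that span each gene with its introns and 2000 bases on each side, so neighbouring genes share target sequence. For this reason a locus sum, which adds to the gene's count those of all targets that its exons also fall in, is given beside the gene's own count. On locus sums the log2 fold change was 3.32 for aPKC and 3.09 for Ras85D, against 4.82 and 7.75 by gene count. No exonic base of Ras85D lies outside other targets. Its own count was 4.46% and 1.24% of its locus sum in control, against 73.2% and 72.8% in tumor. The samples are bulk tissue, in which fewer cells of a type and less RNA per cell cannot be told apart.

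Most septate junction genes had more transcript in tumor: of the 10 genes, 9 rose, none fell and cold was not called at a threshold of 0.05 on the edgeR adjusted p. Among all tested genes 23.4% were called higher. The log2 fold changes of the 9 lay between 1.00 and 3.10, or 2.00-fold to 8.58-fold, with adjusted p-values of 0.0022 to 0.0093. The median over the 10 genes was 1.28, beside 0.02 over all tested genes. In 8 genes the log2 fold change was at least 1 and past the threshold, as in 15.8% of all tested genes. In scaled CPM, counts relative to the scaled library size, both tumor libraries lay above both control libraries for 9 genes, as for 40.8% of all tested genes. On the locus sums 7 of the 10 genes were higher and none lower, beside 29.2% of all tested genes, and the median log2 fold change was 1.06. Together the 10 genes took 0.257% and 0.241% of all counts in tumor 1 and 2, against 0.0891% and 0.0969% in control 1 and 2. Most of these counts were from cora and Nrg, at 72.8% and 64.2% in tumor 1 and 2 and 70.8% and 72.1% in control 1 and 2. Without control 1 only 6 of the 9 genes kept the call, since kune (adjusted p = 0.059), Nrx-IV (0.059) and cora (0.051) lost it, and without control 2 kune lost it (0.058), with log2 fold changes of 1.16 to 1.27 in these 4 fits.

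**Figure D1:**
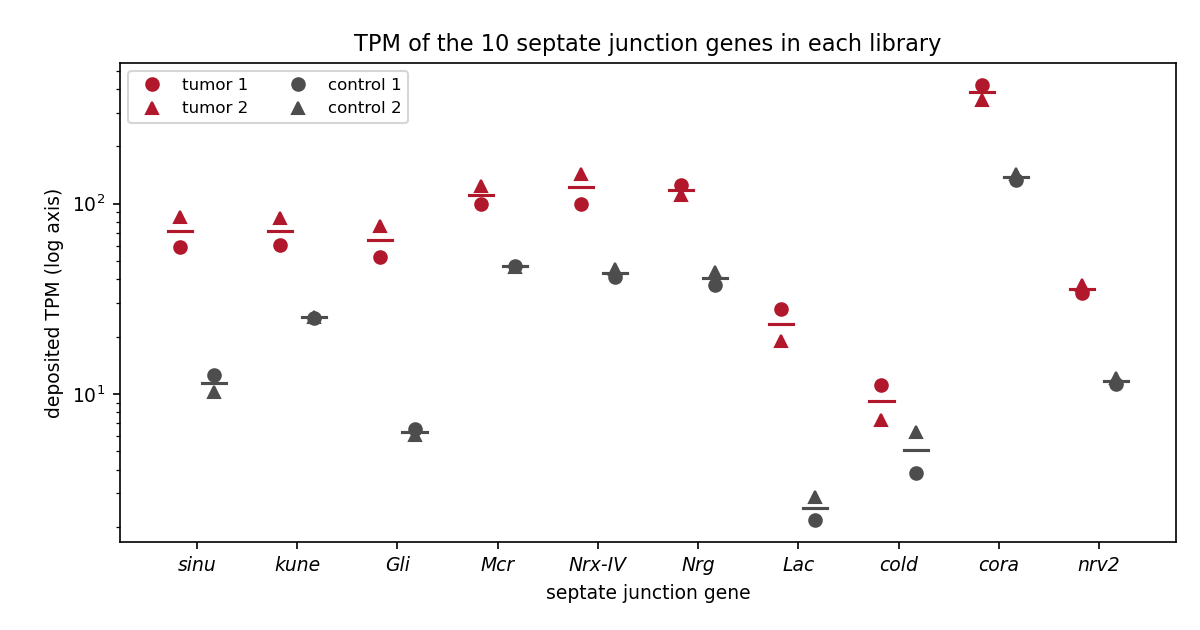
Deposited TPM (log axis) of each septate junction gene, with tumor libraries in red and control libraries in grey; circles are replicate 1, triangles replicate 2 and short lines the group means. Both tumor libraries lie above both control libraries for all 10 genes on this scale. For cold the gap is narrow (7.27 TPM in tumor 2 against 6.31 in control 2), and in scaled CPM its groups overlap. The share of all tested genes that separate on TPM was not computed. Their median log2 fold change was 0.24 on log2(TPM + 1), against 0.02 in the edgeR fit on counts.

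Claudins are small membrane proteins that span the bilayer and shape the paracellular barrier. The claudin gene sinu (FBgn0010894; sinuous; BDGP6.54 chromosome arm 3L, 5559470 to 5561598, minus strand) had 59.2 and 85.3 TPM in tumor against 12.6 and 10.2 TPM in control. The groups were far apart, with the lower tumor library at 4.13 times the higher control library in scaled CPM. On the log2 scale, used for every change below, it rose by 2.41 ± 0.22 (edgeR adjusted p = 0.0039, 2 libraries in each group). Here and below, ± on a log2 fold change is 1 SE derived from the edgeR test statistic. Only 11.2% of its exonic bases lie outside other targets, and 88.8% lie in that of ScsbetaG, a succinyl-CoA synthetase subunit gene on the same strand. ScsbetaG itself had 3427 and 3345 counts in tumor against 966 and 1104 in control. The locus sum of sinu rose by 1.94 ± 0.13 (adjusted p = 3.8e-04), so the sum of both targets was higher in tumor as well.

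A second claudin gene, kune (FBgn0033032; kune-kune; 2R, 5671741 to 5672800, plus strand), had 60.4 and 83.8 TPM in tumor against 25.2 and 25.4 TPM in control. Here the 2 control libraries were nearly equal and both tumor libraries lay above them. The gene rose by 1.26 ± 0.18 (edgeR adjusted p = 0.0093). Its locus is the cleaner one of the pair: its own count made up 99.0 to 99.9% of its locus sum in every library, and the locus sum rose by 1.25 ± 0.18. Within each library, sinu held 54.3% and 55.2% of the counts of the 2 claudin genes in tumor, against 37.8% and 32.9% in control. This share does not depend on how libraries are scaled to each other, but it rests on the sinu target, which overlaps ScsbetaG. With 2 libraries against 2, an exact permutation test cannot give a p below 0.333, so such shares are given as values without a test.

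Gli (FBgn0001987; 2L, 15756002 to 15762758, minus strand) encodes Gliotactin, a neuroligin-like protein of the tricellular junction, where the corners of 3 cells meet. Its level was 52.2 and 76.8 TPM in tumor and 6.57 and 6.05 TPM in control. This was the widest separation of the set, with the lower tumor library at 7.0 times the higher control library in scaled CPM. The log2 fold change was 3.10 ± 0.21 (edgeR adjusted p = 0.0022), the highest among the 10 genes, and the 799th highest of the 9402 tested genes. Its gene count and its locus sum gave rises of very different size. The gene Mtr4, for an RNA helicase, lies next to Gli on the opposite strand, and its target holds 39.7% of the exonic bases of Gli. Mtr4 counts were 2430 and 2236 in tumor against 3235 and 3277 in control. The locus sum of Gli rose by 0.76 ± 0.14 (adjusted p = 0.0065), a fold of 1.69 in place of 8.58. Gli held 61.0% and 68.5% of the counts of both genes in tumor and 12.3% and 13.5% in control. The strand setting of the quantification is not given in the sources used here, so reads of these 2 genes cannot be told apart where their targets overlap.

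Other tricellular genes gave smaller values. The gene bark, listed as aka, encodes Anakonda, a transmembrane protein that recruits Gliotactin to the corners. It had 3447 and 2851 counts in tumor against 1760 and 1763 in control and rose by 0.75 ± 0.15 (edgeR adjusted p = 0.021), with a locus sum at 0.15 (adjusted p = 0.29). The gene count no longer passed without control 2 (adjusted p = 0.075) or tumor 1 (0.073). M6, for a proteolipid family protein of the same corners, had 4146 and 5151 counts in tumor and 2729 and 3468 in control, a log2 fold change of 0.53 ± 0.16 that did not pass (adjusted p = 0.059), while its locus sum did (0.41, adjusted p = 0.017). The ratio of Gli counts to M6 counts in the same library was 0.916 and 0.943 in tumor against 0.166 and 0.148 in control.

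**Figure D2:**
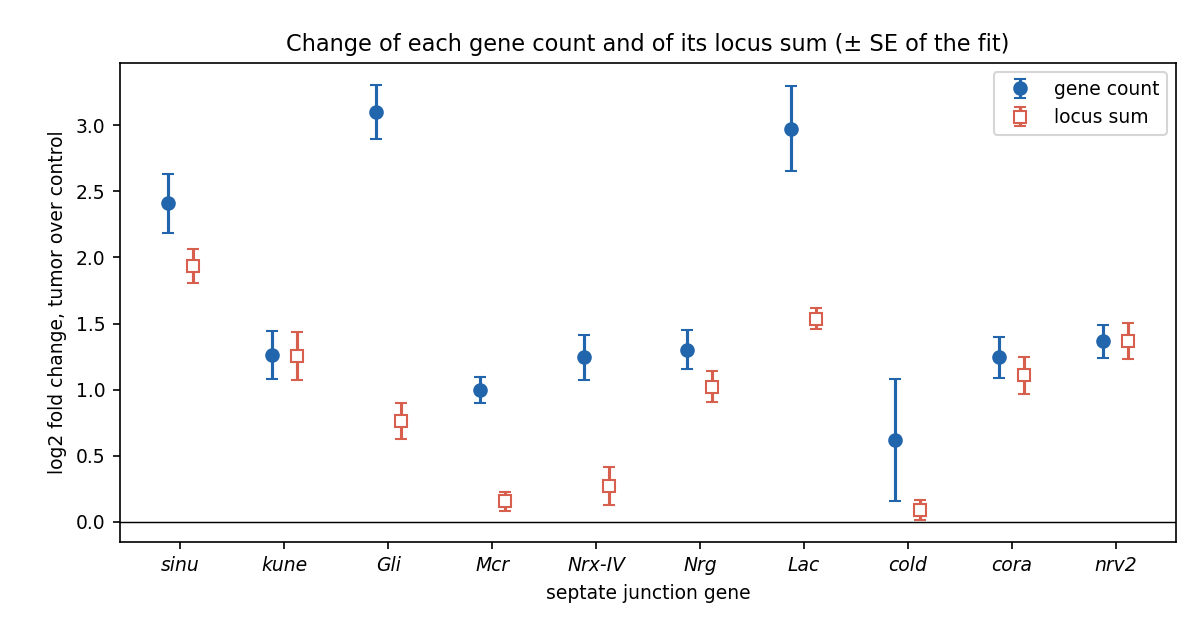
Log2 fold change of tumor over control for each septate junction gene, from its own count (filled circles) and from its locus sum (open squares). Bars are 1 SE derived from the edgeR test statistic. The 2 values lie close together for kune, cora and nrv2 and far apart for Gli (3.10 and 0.76), Lac (2.98 and 1.54), Mcr (1.00 and 0.15) and Nrx-IV (1.24 and 0.27).

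The adhesion complex of Neurexin IV, Neuroglian and Contactin joins neighbouring cells across the junction. Nrx-IV (FBgn0013997; 3L, 12146519 to 12156990, plus strand), a relative of vertebrate Caspr proteins, had 99.95 and 144 TPM in tumor against 41.0 and 45.3 TPM in control. Tumor 2 was well above tumor 1, and both lay above the control libraries. It rose by 1.24 ± 0.17 (edgeR adjusted p = 0.0085). Its locus sum differed by 0.27 ± 0.14 and did not pass (adjusted p = 0.16). Without tumor 1 it passed at 0.43 (adjusted p = 0.030), without tumor 2 it was 0.08 (adjusted p = 0.58), and scaling on ribosomal protein genes gave 0.93 (adjusted p = 0.0016). That sum also holds the target of eIF3l, a translation initiation gene on the opposite strand that fell to 4555 and 4896 counts in tumor, against 6623 and 9508 in control. The eIF3l target holds 8.6% of the exonic bases of Nrx-IV, that of CG9760 33.0% and that of CG32099 12.7%, while 45.7% lie in no other target. Counts of CG9760 were 28 and 47 in tumor and 53 and 69 in control, and CG32099 was listed at 0 in every library.

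Nrg (FBgn0264975; X, 8517373 to 8555170, plus strand) encodes Neuroglian, an L1-type adhesion molecule of the immunoglobulin superfamily. Its counts were 35515 and 27358 in tumor and 10010 and 14427 in control, or 125 and 111 TPM in tumor and 37.3 and 43.7 TPM in control. The groups did not overlap on either scale. Nrg rose by 1.30 ± 0.15 (edgeR adjusted p = 0.0058), with a change of 1.02 ± 0.12 in the locus sum (adjusted p = 0.0015). Its own count made up 98.1 to 99.2% of the locus sum in tumor and 78.1 to 83.9% in control. The neighbouring target of IntS4 on the opposite strand was listed at 0 in both tumor libraries and at 1508 and 1479 counts in control. That of CG33181 on the same strand, the neighbour with the most counts, had 287 and 527 counts in tumor against 1290 and 1291 in control. Cont, the Contactin gene of the same complex and not one of the 10, had 10618 and 13239 counts in tumor against 4662 and 5574 in control and rose by 1.16 ± 0.16 (edgeR adjusted p = 0.0086), with a locus sum at 1.19. That call was lost without control 1 (adjusted p = 0.058) or control 2 (0.057). Nrx-IV and Cont lay close in ratio, at 0.922 and 0.924 Nrx-IV counts per Cont count in tumor and 0.815 and 0.927 in control.

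The scaffold gene cora (FBgn0010434; 2R, 19229063 to 19243751, plus strand) encodes Coracle, a FERM domain protein of the band 4.1 family that binds the cytoplasmic tail of Neurexin IV. Its counts were 53385 and 38863 in tumor against 15990 and 21158 in control. In TPM these were 422 and 353 in tumor against 134 and 143 in control, the highest level of the 10 genes in every library. It rose by 1.24 ± 0.15 (edgeR adjusted p = 0.0066), and 95.3% of its exonic bases lie in no other target. Its locus sum rose by 1.11 ± 0.14. Within each library the ratio of Nrg to cora counts was 0.665 and 0.704 in tumor and 0.626 and 0.682 in control. That of Nrx-IV to cora was less even in tumor, at 0.183 and 0.315, with 0.237 and 0.244 in control. The scaffold gene vari, for a MAGUK protein that binds Neurexin IV and is not one of the 10, had a smaller change of 0.60 ± 0.13 (edgeR adjusted p = 0.026) and a locus sum at 0.17 (adjusted p = 0.15). The call on vari was lost without control 1, control 2 or tumor 1 (adjusted p of 0.068 to 0.10).

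The Na+/K+ ATPase takes part in the septate junction apart from its ion transport. Its beta subunit gene nrv2 (FBgn0015777; Nervana 2; 2L, 6789770 to 6798862, minus strand) had 33.9 and 37.6 TPM in tumor against 11.2 and 12.1 TPM in control. Replicates lay close together in each group and the groups were well apart. The gene rose by 1.36 ± 0.13 (edgeR adjusted p = 0.0039). Its own count made up all of its locus sum to 3 digits, and the locus sum gave the same change of 1.36 ± 0.14. Another beta subunit gene on the same strand, nrv1, whose target shares 73.6% of its exonic bases with that of CG17378, had 4553 and 3747 counts in tumor against 4675 and 5541 in control. It fell by 0.37 ± 0.09 (edgeR adjusted p = 0.033), while its locus sum, at -0.24, did not pass (adjusted p = 0.054). This call was lost without control 1, control 2 or tumor 2 (adjusted p of 0.11 to 0.15). The direction of nrv1 depends on scaling: scaling on ribosomal protein genes, which moved the median of all tested genes by 0.65, gave 0.27 (adjusted p = 0.066). The share of nrv2 in the counts of both genes, which scaling cannot move, was 39.7% and 43.6% in tumor and 16.8% and 18.4% in control. Atpalpha, the alpha subunit gene, had 35994 and 31963 counts in tumor and 31241 and 40092 in control, a log2 fold change of -0.14 ± 0.09 that did not pass (adjusted p = 0.26) and that turned to 0.51 (adjusted p = 0.015) with scaling on ribosomal protein genes. Counts of nrv1 and nrv2 together per count of Atpalpha were 0.210 and 0.208 in tumor, against 0.180 and 0.169 in control.

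**Figure D3:**
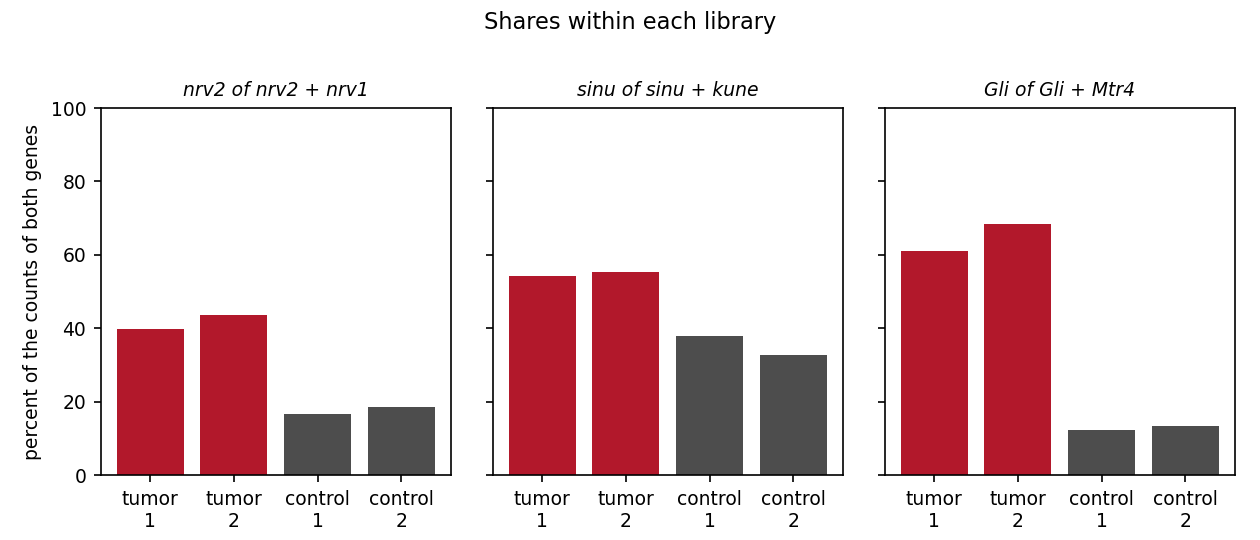
Share of the counts of a pair of genes taken by the first of the pair, in percent, in each library (red, tumor; grey, control). The nrv2 share is 39.7% and 43.6% in tumor against 16.8% and 18.4% in control, and the sinu and Gli shares are higher in both tumor libraries too; Mtr4 is the gene whose target overlaps that of Gli.

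Lac (FBgn0010238; 2R, 12453190 to 12465630, plus strand) encodes Lachesin, an immunoglobulin protein held in the membrane by a lipid anchor. It had 28.0 and 18.9 TPM in tumor against 2.17 and 2.89 TPM in control. Its level in control was the lowest of the set in TPM, and the lower tumor library lay at 5.30 times the higher control library in scaled CPM. The gene rose by 2.98 ± 0.32 (edgeR adjusted p = 0.0051). None of its exonic bases lies outside other targets. The target of dgt5, an augmin subunit gene on the opposite strand, holds 59.9% of them, and that of Dyb, the dystrobrevin gene, holds 40.1%. Counts of dgt5 were 14594 and 13141 in tumor against 3525 and 4117 in control. Lac made up 14.6% and 9.99% of its locus sum in tumor and 4.0% and 5.10% in control, and the locus sum rose by 1.54 ± 0.08 (adjusted p = 2.1e-04).

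Mcr (FBgn0267488; 2L, 8074117 to 8082982, minus strand), for a macroglobulin complement-related protein that is a member of the thioester protein family and a core junction component in epithelia, had 99.3 and 124 TPM in tumor and 47.3 and 46.6 TPM in control. Control libraries were nearly equal and the tumor libraries lay above them. The gene rose by 1.00 ± 0.10 (edgeR adjusted p = 0.0044), the smallest of the called changes. Its own exonic bases lie outside other targets for 72.6%. Most of its locus sum comes from Bsg, the basigin gene on the opposite strand, whose target holds 2.73% of the exonic bases of Mcr and whose counts were 15649 and 13712 in tumor against 14557 and 17427 in control. The locus sum of Mcr differed by 0.15 ± 0.07 and did not pass (adjusted p = 0.12). It passed, at higher values, under scaling on library totals or on ribosomal protein genes.

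The gene cold (FBgn0031268; coiled; 2L, 574291 to 575734, plus strand) encodes a lipid-anchored Ly6 protein needed to form the junction. It had 406 and 232 counts in tumor against 133 and 269 in control, and in scaled CPM the groups overlapped, with 8.41 and 5.16 in tumor and 3.31 and 5.52 in control. The log2 fold change of 0.62 ± 0.46 did not pass (edgeR adjusted p = 0.33), and 1 SE on each side spans 1.12-fold to 2.11-fold. All of its exonic bases lie in the target of Ipk2, which had 3323 and 3044 counts in tumor against 1063 and 1230 in control. The target of Sf3b1, the neighbour with the most counts (5084 and 4191 in tumor, 5524 and 6324 in control), holds 33.2% of them. The count of cold itself was at most 4.60% of its locus sum. That sum differed by 0.09 ± 0.08 and did not pass (edgeR adjusted p = 0.36). A change of the size seen in Mcr, Nrx-IV or kune was therefore not resolved for cold at this spread.

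Other Ly6 genes of the junction gave mixed values. The gene crok (crooked) had 1633 and 1909 counts in tumor against 417 and 442 in control and rose by 1.97 ± 0.20 (edgeR adjusted p = 0.0045). Its locus sum went the other way (-2.75, adjusted p = 2.1e-04), and 97.8% of its exonic bases lie in the target of bru1, a germline gene with 827 and 610 counts in tumor against 15894 and 15019 in control. The gene crim (crimpled) had 4739 and 4740 counts in tumor and 4069 and 4446 in control and did not pass (0.08 ± 0.09, edgeR adjusted p = 0.51), whereas its locus sum did (0.29, adjusted p = 0.017).

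Levels are compared between genes per length. On the TPM scale, which divides by the whole target, cora was highest at 387 ± 49 TPM in tumor and 139 ± 7.0 TPM in control (SD, n = 2 each). Mean TPM of Nrx-IV, Nrg and Mcr followed at 122 ± 31, 118 ± 10.2 and 111 ± 17 in tumor and 43.1 ± 3.0, 40.5 ± 4.5 and 46.9 ± 0.46 in control. Their means in tumor differed by less than the spread between libraries. In tumor, sinu (72.2 ± 18 TPM), kune (72.1 ± 17) and Gli (64.5 ± 17) were likewise not apart, whereas in control kune (25.3 ± 0.12) was above sinu (11.4 ± 1.7), which was above Gli (6.31 ± 0.37). In control nrv2, at 11.7 ± 0.64 TPM, was level with sinu, and in tumor it was below it at 35.8 ± 2.6. The lowest levels on this scale were those of Lac and cold, at 23.5 ± 6.5 and 9.17 ± 2.7 TPM in tumor and 2.53 ± 0.50 and 5.07 ± 1.8 TPM in control. Exonic bases make up 13.1% to 48.9% of these targets, so counts were also divided by exonic length. On that scale, CPM per exonic kilobase, cora was still highest, with a mean of 168 in tumor and 66.4 in control, and Nrg followed with 69.4 in tumor and 26.3 in control. The lower ranks differed from those in TPM: in tumor Lac (25.1) lay above Gli (21.7) and nrv2 (18.4), with cold lowest (6.03), and in control Gli was lowest (2.35), below Lac (2.99) and cold (3.67).

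Replicates of the tumor genotype did not deviate alike for all 10 genes. In scaled CPM, cora, Nrg, Lac and cold were higher in tumor 1, and the other 6 genes were higher in tumor 2. The ratio of tumor 2 to tumor 1 was 0.613 for cold, 0.629 for Lac and 0.781 for cora, against 1.37 for Gli, 1.34 for sinu and 1.34 for Nrx-IV. In nrv2 it was 1.04. Control libraries were closer for most genes, with ratios of control 2 to control 1 from 0.823 for sinu to 1.35 for Lac, and 1.67 for cold.

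The 10 genes were also set against genes of the follicular epithelium within each library. Of 11 such genes 4 rose, 3 fell and 4 were not called, with summed levels of 4303 and 4721 CPM in tumor and 3238 and 3802 CPM in control. Fas3 and Fas2 are in this list and also in that of further pleated junction genes below. The E-cadherin gene shg had 18336 and 18536 counts in tumor against 14228 and 17869 in control and did not pass (0.14 ± 0.09, edgeR adjusted p = 0.26). Counts per shg count in the same library were higher in both tumor libraries for 9 of the 10 genes, with the ratio of the group means at 1.81 for Mcr and at 7.76 for Gli, and the exception was cold. The beta-catenin gene arm rose by 0.70 ± 0.09 (edgeR adjusted p = 0.0077; 0.059 without control 1 and 0.057 without control 2), and counts per arm count were again higher in both tumor libraries for the same 9 genes, from 1.23-fold for Mcr to 5.27-fold for Gli. The Maf factor gene tj, whose enhancer names the driver, fell by 0.66 ± 0.12 (edgeR adjusted p = 0.016), a call lost without control 2 (adjusted p = 0.078), without tumor 2 (0.056) or under scaling on ribosomal protein genes (-0.02, adjusted p = 0.90). Per tj count all 10 genes were higher in both tumor libraries. A lower tj count in tumor raises this ratio for every gene. Fas3, an adhesion gene of the lateral membrane, has its protein at septate junctions and rose by 1.41 ± 0.11 (edgeR adjusted p = 0.0027). Per Fas3 count only sinu (1.96-fold), Gli (3.19-fold) and Lac (3.0-fold) were higher in both tumor libraries. The other 7 genes had ratios of the group means between 0.589 and 0.967. All these ratios are of gene counts, and the targets of sinu, Gli and Lac overlap those of neighbours. On locus sums the fold of tumor over control was 3.83 for sinu, 1.69 for Gli and 2.90 for Lac, beside 2.66 for Fas3. The share of all tested genes higher in both tumor libraries per count of shg, arm, tj or Fas3 was not computed.

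**Figure D4:**
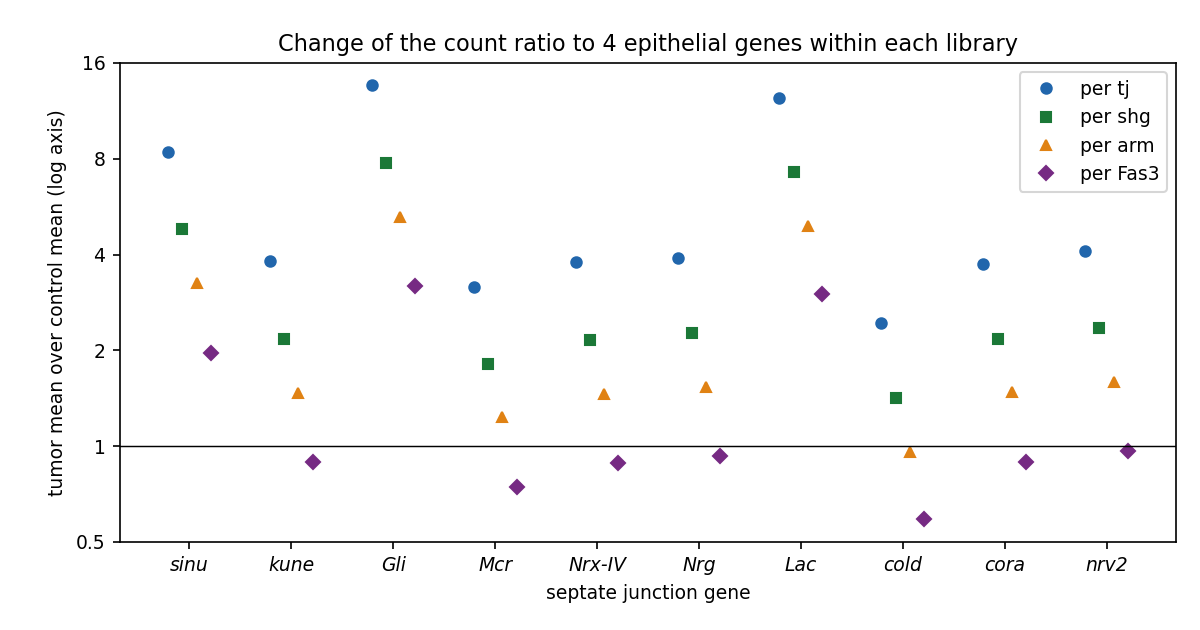
Count of each septate junction gene divided by the count of tj, shg, arm or Fas3 in the same library, shown as the mean of the tumor libraries over the mean of the control libraries (log axis; the line marks 1). Ratios per tj and per shg lie above 1 for all 10 genes, from 2.43 and 1.42 for cold, while per Fas3 only sinu, Gli and Lac lie above 1. Gene counts are used here, not locus sums.

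Outside the 10 genes, 14 further pleated septate junction genes were listed, of which 10 were tested. Among these 5 rose (Cont, vari, crok, pasi2 and Fas3), nrv1 fell, and Atpalpha, crim, pasi1 and Fas2 did not pass, beside 23.4% of all tested genes called higher. Their median log2 fold change was 0.52. The gene pasi2, for a membrane protein that helps place the junction complex, had 1748 and 1830 counts in tumor against 711 and 801 in control (1.17 ± 0.15, edgeR adjusted p = 0.0075; 0.055 without control 2). The locus sum of pasi2 rose by 0.78 (adjusted p = 0.0060). The related gene pasi1 differed by 0.30 ± 0.10 (edgeR adjusted p = 0.080), with a locus sum at 0.49 (adjusted p = 0.0071). No exonic base of pasi2 or pasi1 lies outside other targets. Fas2, for Fasciclin 2, differed by 0.45 ± 0.15 (edgeR adjusted p = 0.072). Of 4 basolateral polarity genes, scrib (0.31 ± 0.08, edgeR adjusted p = 0.033) and l(2)gl (0.64 ± 0.16, adjusted p = 0.036) were higher and dlg1 (0.13 ± 0.10) and yrt (-0.17 ± 0.11) did not pass; yrt turned to 0.48 (adjusted p = 0.048) with scaling on ribosomal protein genes. The locus sum of scrib went the other way, at -0.47 (adjusted p = 0.028), and that of dlg1 was higher, at 0.34 (adjusted p = 0.025). The call on scrib was lost without any 1 of the 4 libraries (adjusted p of 0.088 to 0.18), and that on l(2)gl without control 1, control 2 or tumor 1 (0.059 to 0.16).

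Smooth septate junctions are the form found in the midgut and Malpighian tubules, and 3 of their 4 listed genes were tested and rose. The gene mesh, for a large membrane protein of these junctions, had 736 and 529 counts in tumor against 11 and 17 in control and rose by 5.42 ± 0.40 (edgeR adjusted p = 0.0025), with a locus sum at 1.18 (adjusted p = 0.0081). All exonic bases of Ssk, the Snakeskin gene, lie in the target of CG42674. That target had 5101 and 4395 counts in tumor against 2596 and 3557 in control. Ssk itself had 873 and 766 counts in tumor and 211 and 335 in control. It rose by 1.53 ± 0.26 (edgeR adjusted p = 0.014), with a locus sum at 0.67. This call was lost without control 1 (adjusted p = 0.063) or tumor 1 (0.051). The gene hoka had 667 and 579 counts in tumor against 0 and 4 in control (edgeR adjusted p = 0.0078), and 28.3% of its target is annotated transposable element sequence. These levels were low beside those of the pleated junction genes, with mesh at 5.09 and 4.2 TPM in tumor. A list of 8 genes of the midgut and Malpighian tubules, among them the trypsin genes alphaTry and betaTry, was at or near 0, with a summed level of 0.250 and 0.340 CPM in tumor and 0.269 and 0.137 CPM in control and no member tested. For 6 of these 8 genes no exonic base lies outside other targets, so a 0 there cannot be read as absence. Mal-A1, a maltase gene, and Uro were listed at 0 in every library, so their locus sums hold only counts of neighbouring targets. That of Mal-A1 was 1141 and 706 counts in tumor against 256 and 338 in control. That of Uro was 2785 and 2846 counts in tumor against 3120 and 4253 in control.

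**Figure D5:**
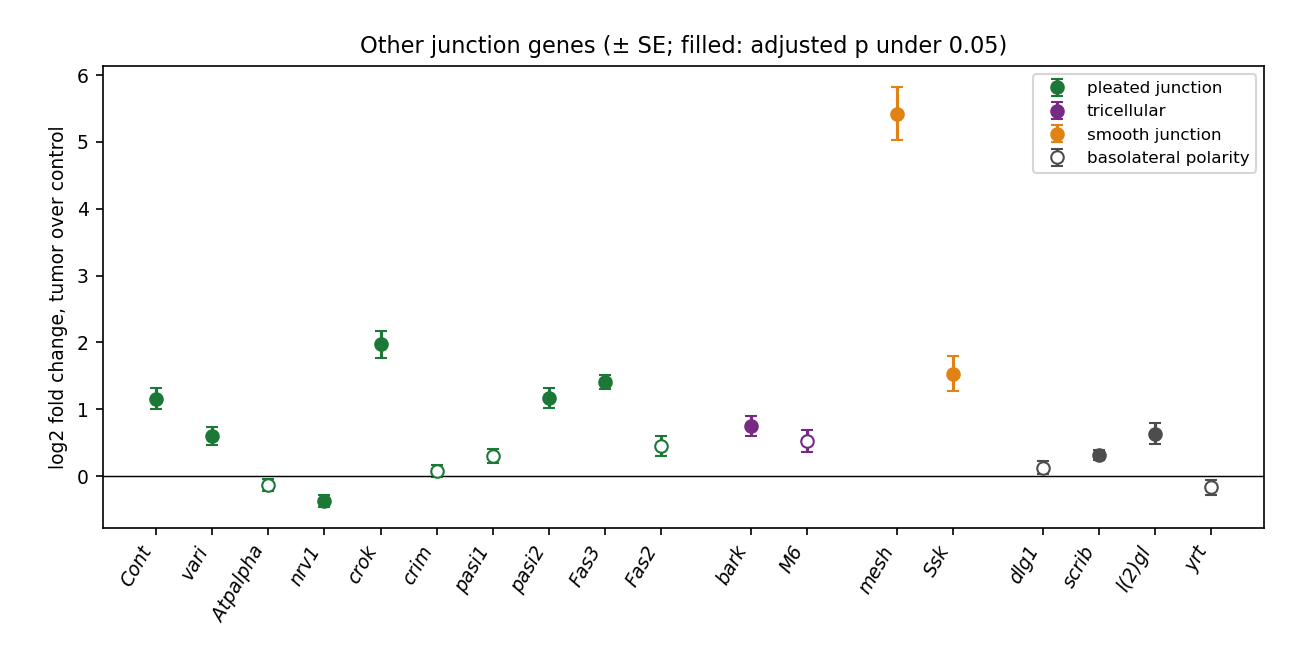
Log2 fold change of tumor over control for the tested genes of the other junction lists except hoka, which had 0 and 4 counts in control. Bars are 1 SE derived from the edgeR test statistic, and filled points passed an adjusted p of 0.05. The tested pleated junction genes lie between -0.37 (nrv1) and 1.97 (crok), and mesh lies apart at 5.42.

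Markers of other cell types, among them types that build septate junctions, differed between the genotypes, and several of these differences were smaller or absent on locus sums. Of 9 tracheal genes 4 of 8 tested rose and 1 (trh) fell by gene count, with a summed level of 99.7 and 152 CPM in tumor against 6.46 and 6.86 CPM in control. Most of that sum in tumor was the FGF receptor gene btl, at 4064 and 5722 counts in tumor against 72 and 117 in control (5.65; locus sum 2.47, edgeR adjusted p = 0.0017 and 7.9e-04). The gene trh, for a factor that defines tracheal cells, had 7 and 8 counts in tumor and 85 and 89 in control (-3.59, edgeR adjusted p = 0.011), while its locus sum did not pass (0.05, adjusted p = 0.74). On locus sums 4 tracheal genes were higher and 1, other than trh, was lower.

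Among 9 glial and neuronal genes 2 of 5 tested rose, with summed levels of 83 and 95.4 CPM in tumor and 16.8 and 10.7 CPM in control. On locus sums 1 was higher and 1 lower. The glial gene wrapper had 2033 and 2837 counts in tumor and 19 and 22 in control (6.82; locus sum 1.56), and moody had 1806 and 1112 counts in tumor and 564 and 384 in control (1.5; locus sum -0.08, adjusted p = 0.32). Counts of repo were 0 and 14 in tumor and 6 and 0 in control. Both elav and gcm were listed at 0 in all 4 libraries, but no exonic base of elav lies outside other targets, so its 0 does not show that the gene was silent.

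Hemocyte genes rose in 6 of 8 cases, with summed levels of 458 and 438 CPM in tumor and 346 and 255 CPM in control. Most of the control sum was crq, which did not pass, at 242 and 232 CPM in tumor and 276 and 219 CPM in control. The 6 genes that rose changed by 3.02 (eater) to 6.74 (He), and Hml had 98.7 and 82.2 CPM in tumor against 9.35 and 4.53 CPM in control. On locus sums 6 hemocyte genes were higher and 2, crq and srp, were lower. Germline genes fell in all 9 tested cases by gene count, with a median of -4.52, and took 193 and 202 CPM in tumor against 1205 and 1117 CPM in control. On locus sums 6 germline genes were lower and 1, Rbp9, was higher, with a median of -0.85. Of 6 tested muscle genes 2 fell and none rose by gene count, with 270 and 197 CPM in tumor and 343 and 614 CPM in control, whereas on locus sums 4 were lower and 1, sls, was higher. The part of these cells in the values of the septate junction genes was not tested.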

How the data were processed

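RNA-seq of 2 tumor and 2 control ovary libraries was used, with groups and replicate numbers from the sample titles. The submitters' processing notes name kallisto, without version, build or strand setting. Estimated counts and TPM of 17773 gene targets were deposited, per the file headers, as kallisto output. For 17551 of 17668 annotated targets (99.3%) the deposited length equals the span in the Ensembl 115 annotation of BDGP6.54, the source of all coordinates, plus 2000 bases on each side.

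Rounded estimated counts, with the deposited TPM used for levels, went into edgeR 4.0.16 under R 4.3.3 (filterByExpr, TMM, glmQLFit, glmQLFTest on group), two-sided, with Benjamini-Hochberg adjustment over all 9402 tested genes and a threshold of 0.05. The test was checked on simulated counts. It reports no SE. The SE of a log2 fold change is its absolute value divided by the square root of the F statistic. Locus sums of the same genes were tested under the scaling of the gene counts. Scaled CPM are CPM under TMM factors. The named genes are all 10 members, the tested genes of the junction lists, and aPKC and Ras85D. For each member except kune, cora and nrv2 the main overlapping neighbour is named too. Other neighbours and marker genes are given where they bear on a value. The members, lists and rule were chosen with earlier results of these data known, and the list of midgut genes after these values were seen. Of 97 listed symbols 96 matched. Intervals cover the spread between these libraries only. DESeq2 1.42.0 and limma 3.58.1 served as alternatives, and Python 3.11.15 with pandas 2.3.3 and matplotlib 3.10.9 for joins and figures.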

Additional observations from a re-analysis of the deposited data

How the results depend on the processing

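The count of 9 septate junction genes higher in tumor was the same under scaling by library totals, upper quartiles, DESeq2 size factors, ribosomal protein genes or all but germline and eggshell genes, no filter, at least 100 counts in 2 libraries, DESeq2, limma-voom, limma-trend on log2 TPM (pseudocount 0.1, 1 or 5), and an adjusted p of 0.01. It was 7 on locus sums, 6 to 9 when a library was left out, and 5 of 5 among the genes with most of their exonic bases in no other target (kune, Mcr, cora, Nrg and nrv2), an alternative chosen after seeing the data. No gene of the 10 was called lower in any of these. Against 23.4% of all tested genes called higher in the main fit, the share was 15.3% with no filter and 20.6% with upper-quartile factors. It was 34.3 to 35.2% on log2 TPM, 47.1% on ribosomal protein genes and 29.2% on locus sums. With the DESeq2 test it was 27.1%, with limma-voom 24.5% and with a replicate block 16.3%. At an adjusted p of 0.01, 992 of the 9402 tested genes were called higher. No such share was computed for genes with most of their exonic bases in no other target. Across scalings the log2 fold changes ran from 2.30 to 3.07 for sinu, 2.99 to 3.76 for Gli and 0.89 to 1.65 for Mcr, while the median of all tested genes moved by 0.65 on ribosomal protein genes and by -0.11 with upper-quartile factors. The number of all genes called, 4191, was 1855 to 2992 without 1 library and 1843 at an adjusted p of 0.01; the cause was not tested. The 5 further pleated junction genes called higher became 9 under scaling on ribosomal protein genes, where 47.1% of all tested genes were called higher, and 2 to 5 without 1 library. The directions of nrv1 (0.27), Atpalpha (0.51) and yrt (0.48) turned under scaling on ribosomal protein genes, and those of crok (-2.75) and scrib (-0.47) on locus sums. Locus sums called 7 or 8 of the septate junction genes in the alternatives run on them, except for 10 under scaling on ribosomal protein genes, where 66.5% of all locus sums were called higher. With a replicate block 9 septate junction genes and 2838 genes in all were called; same-numbered libraries deviated with a correlation of -0.019 and share only a number. Fits without a library leave 1 group with a lone sample, which is assumed to vary like the other group.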

Other observations

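The third claudin gene of the septate junction, pck, was listed at 0 in all 4 libraries, as were the junction genes Tsf2, bou and Tsp2A. For each of these 4 genes every exonic base lies in the target of a neighbour, so a value of 0 does not show that the gene was silent. The summed counts of all targets that hold a pck exon were 5216 and 5020 in tumor and 2107 and 2644 in control. For bou the sum was that of ogre, an innexin gene, at 21211 and 19652 counts in tumor and 12408 and 16416 in control. The neighbour of another Ly6 gene, twit, was bero, itself a Ly6-type gene, with 17468 and 10091 counts in tumor against 659 and 1034 in control, whereas twit had 0 and 6 counts in tumor and 0 and 0 in control.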
